A study of Mus musculus with 21 samples.

Results

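The protein genes of the cytosolic ribosome were followed in 21 polyadenylated RNA libraries of mouse embryonic stem cells (ESCs). A gene was included where its listed name starts with Rpl, Rps or Rplp and continues with a number, at most 1 of the letters a, x, y and l, and any further digits, or is Rpsa, and names of pseudogenes and of the Rps6k kinases were left out. The rule found 83 of 32285 genes listed in the time course (32 of the small and 51 of the large subunit) and 85 of 25239 genes listed in the Cyp26a1 set (33 and 52), the additional names there being Rps4l and Rpl32l. All of them reached at least 1 TPM (an abundance scaled for length and depth that sums to the same total in each library) in at least 3 libraries of their set, as did 13948 and 12848 genes in all, which were the genes tested. The rule used names and this floor, and no difference between groups.

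Each group held 3 libraries of polyadenylated RNA. RA_12h and RA_24h were wild type ESCs given 2 µM retinoic acid (RA), a vitamin A derivative that drives differentiation, for 12 h and 24 h. noRA_12h and noRA_24h were wild type ESCs kept without LIF and 2i for 12 h and 24 h, and ESC_0h were wild type ESCs at 0 h. KO_RA24h were Cyp26a1 knockout ESCs and WT_RA24h wild type ESCs, both under 2 µM RA for 24 h once LIF and 2i had been taken away. All cells had first been grown in serum with LIF, 1 µM PD0325901 (a MEK inhibitor) and 3 µM CHIR99021 (a GSK3 inhibitor), and these inhibitors together are 2i. The labels name neither the ESC line nor a knockout clone, and do not say whether the time course cells given RA also lost LIF and 2i. There was no group with LIF and 2i at the later times, so removal and time in culture cannot be told apart. Replicates are numbered without a statement that they were separate cultures, so p-values measure only the spread between these libraries, which may be technical.

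Each ribosome carries 1 copy of nearly every one of these proteins, so their transcripts are among the most abundant in growing cells and tend to be made together. Most begin with a run of pyrimidines at the very 5′ end (a terminal oligopyrimidine or TOP tract), through which LARP1 and the kinase complex mTORC1 govern their translation and storage. Myc proteins raise the transcription of ribosomal protein and rRNA genes, and pluripotent cells run this programme at a high rate.

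The depth was 2.96 to 3.91 gigabases of aligned bases for time course libraries, and 2.72 to 3.24 gigabases for those of the Cyp26a1 set. All 6 ESC markers looked up averaged above 1 TPM in every group, but they differed in direction. Pou5f1, a core pluripotency factor, averaged 2364 ± 231 TPM in RA_24h, 2760 ± 44.2 TPM in noRA_24h and 2321 ± 103 TPM in ESC_0h (SD, n = 3 each). Nanog, a factor of naive pluripotency, averaged 246 ± 12.7 TPM in RA_24h, 164 ± 6.97 TPM in noRA_24h and 527 ± 20.9 TPM in ESC_0h, and Utf1 averaged 410 ± 52.7 TPM in RA_24h, 574 ± 12.0 TPM in noRA_24h and 46.1 ± 4.73 TPM in ESC_0h. Summed over 6 primitive endoderm markers, the level was 136 to 157 TPM in RA_24h and 67.7 to 80.8 TPM in ESC_0h, with noRA_24h below both (lowest library 5.28 TPM). Lama1 made up most of the sum in ESC_0h (34.9 ± 2.41 TPM in RA_24h and 72.6 ± 6.25 TPM in ESC_0h), while Gata6 averaged 64.6 ± 5.87 TPM in RA_24h and 0.63 ± 0.18 TPM in ESC_0h, and the other 4 averaged at most 1.75 TPM in ESC_0h. Cyp26a1, which encodes an RA-degrading enzyme, averaged 4.52 ± 0.458 TPM in KO_RA24h and 595 ± 10.8 TPM in WT_RA24h (SD, n = 3 each). Some libraries stood apart from the others of their group along 1 axis (the first principal component of within-group deviations), which held 67.2% of that variation in the time course and 70.1% in the Cyp26a1 set. These were RA_24h library 2 (score 49.8, against -31.2 and -18.6 for libraries 3 and 1), noRA_12h library 1 (40.2, against -35.1 and -5.07 for libraries 2 and 3) and KO_RA24h library 3 (36.4, against -21.9 and -14.5). The axis follows GC content: over the tested genes, Spearman's rho between a gene's GC content and its deviation from the mean of the set was -0.51 in RA_24h library 2, against 0.23 and 0.39 in the other RA_24h libraries. It was -0.50 to -0.55 in all 3 noRA_24h libraries and 0.40 to 0.47 in all 3 RA_12h libraries, so GC content and group cannot be fully told apart. The main counts of each gene list below are therefore also given after a smooth curve of log2 level on GC content and transcript length had been removed from each library (the GC and length correction).

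RefSeq promoters (GRCm38.p6) were at hand for 64 of the 85 genes. A run of at least 8 bases that begins with C and continues with C or T only, read on the gene's own strand from 30 bases before to 50 bases after the annotated start, was found in 50 of these 64 (78.1%). The same run was found in 7025 of 27025 genes with a promoter (26.0%). A run anywhere in this window was counted. In some genes it spans the start, and in others it lies well after it (41 bases in Rpl10 and 40 in Rpl41). The share is thus not that of genes with a TOP tract. The windows shown run from 50 bases before the start to 20 bases from it on, in lower case with such runs in capitals. They are those of 4 genes whose level fell after 24 h without RA (Rps10, Rpl14, Rpl27a and Rplp0), of Rpl22l1, whose level rose, and of Rps27, whose start is shared with another listed gene in the Cyp26a1 set.
Rps10 (chr17:27635225-27635294, minus strand): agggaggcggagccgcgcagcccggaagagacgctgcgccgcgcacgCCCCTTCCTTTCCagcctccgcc
Rpl14 (chr9:120571467-120571536, plus strand): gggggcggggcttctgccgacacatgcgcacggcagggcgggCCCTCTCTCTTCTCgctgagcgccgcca
Rpl27a (chr7:109519145-109519214, plus strand): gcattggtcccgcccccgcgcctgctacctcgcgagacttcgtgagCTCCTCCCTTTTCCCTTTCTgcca
Rplp0 (chr5:115559417-115559486, plus strand): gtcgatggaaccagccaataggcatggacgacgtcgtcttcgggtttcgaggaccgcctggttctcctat
Rpl22l1 (chr3:28805458-28805527, plus strand): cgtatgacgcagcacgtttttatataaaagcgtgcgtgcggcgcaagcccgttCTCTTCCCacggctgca
Rps27 (chr3:90213629-90213698, minus strand): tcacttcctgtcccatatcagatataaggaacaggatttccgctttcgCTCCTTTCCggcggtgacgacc
In Rps10, Rpl14, Rpl27a and Rps27 the run spans the annotated start, in Rpl22l1 it begins a few bases after it, and in Rplp0 no such run lies in the searched window, which says only that these letters are not there. Of other genes that fell and are not shown, Rps2 and Rpl12 have their longest run 40 and 39 bases after the start. Rps3 has none in the searched window, so a run at the start was not common to the genes that fell. After 24 h without RA, 18 of 49 genes with a run were lower (median change -0.11) and 6 of 14 genes without one were lower (median change -0.12), against 26.5% of all tested genes.

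Together the 83 genes held 17.2% to 19.5% of all TPM in the time course. Their share was 18.8% ± 0.741 in ESC_0h, 18.7% ± 0.205 in RA_12h, 18.3% ± 0.239 in noRA_12h, 17.9% ± 0.610 in RA_24h and 17.4% ± 0.149 in noRA_24h (SD, n = 3 each). The noRA_24h libraries (17.2% to 17.5%) lay below every ESC_0h library (18.1% to 19.5%), while each group overlapped its neighbours in this order, so the order of neighbours is not settled by the libraries. Since TPM sums to the same total in each library, a lower share and a higher level of other transcripts cannot be told apart, nor in bulk RNA can fewer cells of a type and less RNA per cell. The small subunit genes made up 40.8% to 42.2% of the ribosomal protein total in all 15 libraries. In the Cyp26a1 set the share, with Rps27rt (described below) added, was 18.6% to 20.2% in KO_RA24h and 18.5% to 19.3% in WT_RA24h, and the groups overlapped. There the small subunit genes and Rps27rt made up 43.2% to 43.7% of the total in KO_RA24h and 42.5% to 42.8% in WT_RA24h, without overlap.

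**Figure D1:**
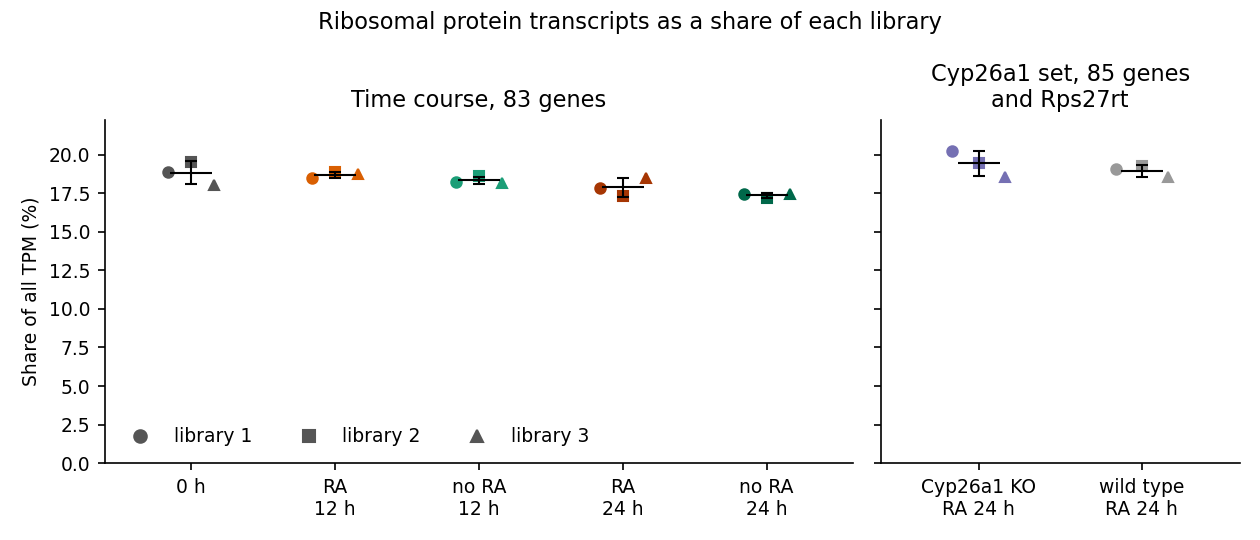
Share of all TPM held by the ribosomal protein genes (percent, linear axis from 0), with 1 symbol per library and the mean with its SD (n = 3) as a dash with bars. The noRA_24h libraries lie between 17.2% and 17.5%, below the ESC_0h libraries at 18.1% to 19.5%, and in the Cyp26a1 set the knockout and wild type libraries overlap.

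Most of the genes were uniformly high. In the time course 70 of 83 averaged above 1000 TPM, with Rpl13a highest at 6215 TPM and Rpl3l lowest at 4.03 TPM over all libraries, and only Rpl3l and Rpl29 averaged below 100 TPM. The highest library exceeded the lowest by less than 1.5-fold for 75 of 83 genes, and the median of this ratio was 1.28. Within groups the widest spread between libraries was that of Rps4x, a small subunit protein encoded on the X chromosome. Rps4x stood at 2161, 3187 and 1979 TPM in the RA_24h libraries and at 3345, 1980 and 2733 TPM in the noRA_12h libraries. Its high values are thus in RA_24h library 2 and noRA_12h library 1, the libraries at the upper end of the axis. Rpl7, Rpl22l1, Rps6, the S6 kinase substrate of the small subunit, and Rps24 followed the same libraries, with Pearson r of 0.72 to 0.91 between their within-group deviation and the axis score over 15 libraries. Rps2, Rplp0 and Rps10 ran against it (r of -0.84 to -0.89). Of all 83 genes, 14 had r above 0.5 (median GC content 48.2%) and 46 had r below -0.5 (median GC content 53.1%). This is a description, since the axis was drawn from the same libraries.

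After 12 h without LIF and 2i the family as a whole stayed near its 0 h level, with a median change of -0.01 on the log2(TPM + 1) scale against -0.04 over all genes tested. By limma with Benjamini-Hochberg adjustment over all genes, 7 of 83 were higher and 6 lower in noRA_12h than in ESC_0h, while 22.0% and 20.4% of all tested genes were. The share of the family past the threshold was thus below that of all genes in both directions. No gene changed by more than 0.5.

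The largest fall past the threshold was that of Rps24, a small subunit protein mutated in Diamond-Blackfan anaemia. It stood at 3167, 2386 and 2918 TPM in noRA_12h and 3320, 3767 and 3302 TPM in ESC_0h, and fell by 0.30 (SE 0.11, adjusted p = 0.035). The groups do not overlap, and noRA_12h library 2 is far below the others. Rplp0, the protein that anchors the stalk where elongation factors dock, stood at 1594, 1803 and 1597 TPM in noRA_12h and 2068, 1973 and 1950 TPM in ESC_0h. Its fall of 0.26 (SE 0.06, adjusted p = 0.0039) is carried by all 3 libraries. Rps2, which lies at the mRNA entry side of the small subunit, was at 4252, 4692 and 4360 TPM in noRA_12h and 5488, 5275 and 4997 TPM in ESC_0h, and fell by 0.24 (SE 0.06, adjusted p = 0.0070), again without overlap. Rpl36, Rpl28 and Rpl14 fell by 0.18, 0.16 and 0.14, and for each the groups do not overlap. All 6 lower genes had groups that did not overlap, as did 97.1% of the 2849 genes called lower in all. Rplp0 and Rps2 were the falls that stayed past the threshold without each library in turn (2 of 6, against 72.8% of all genes called lower).

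The 7 higher genes at 12 h included 2 paralogs. Rpl7l1, a paralog of Rpl7 with a known part in large subunit assembly, stood at 357, 413 and 404 TPM in noRA_12h and 329, 343 and 306 TPM in ESC_0h, and rose by 0.26 (SE 0.07, adjusted p = 0.011). Rpl34 rose by 0.26, Rpl21 by 0.24, Rps27l, a paralog of Rps27 that p53 induces, by 0.21, Rpl29 by 0.21, Rpl30 by 0.15 and Rps26 by 0.13. The groups overlap for Rps27l and Rpl21 and not for the other 5 (71.4%), against 97.1% without overlap among the 3073 genes called higher in all. Of these rises only that of Rpl29 stayed past the threshold without each library in turn (highest adjusted p 0.045), against 78.2% of all genes called higher.

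The 12 h counts moved with single libraries and with GC content. The count of higher genes was 3 without ESC_0h library 1, 1 without ESC_0h library 3 and 4 without noRA_12h library 2, and that of lower genes was 2, 3 and 2 without ESC_0h library 1, ESC_0h library 2 and noRA_12h library 3. In 0 of 21 alternatives did the family's share exceed that of all genes, in either direction. After the GC and length correction 1 gene was higher (Rpl7l1) and 20 were lower, against 23.0% and 26.0% of all genes, and 5 of the 6 lower genes were among the 20.

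After 24 h without LIF and 2i the family's median was lower. In noRA_24h 30 of 83 genes were lower than in ESC_0h (36.1%) and 3 were higher (3.61%), against 26.5% and 25.4% of all tested genes. The share that rose was below that of all genes in all 21 alternatives. The share that fell was above it in 19 of 21, and below it with median-of-ratios scaling (16.9% of the family and 24.2% of all genes) and without ESC_0h library 2 (24.1% and 25.4%). Among the 19 it was level to 3 digits without noRA_24h library 2 (24.1% of both). The median change was -0.10, against 0.03 over all genes, and 63 of 83 changes were below 0. The falls were small: none passed 0.5 on the log2 scale. The median SE was 0.063 over the family and 0.135 over all genes tested, so smaller changes could pass in the family and the shares are of unlike precision. Both subunits took part, with 11 of 32 small subunit genes lower (median -0.12) and 19 of 51 large subunit genes lower (median -0.10). All 30 lower genes had groups that did not overlap, as did 98.9% of the 3697 genes called lower in all. Of the 30, 19 (63.3%) stayed past the threshold without each library in turn, against 81.4% of the 3697.

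**Figure D2:**
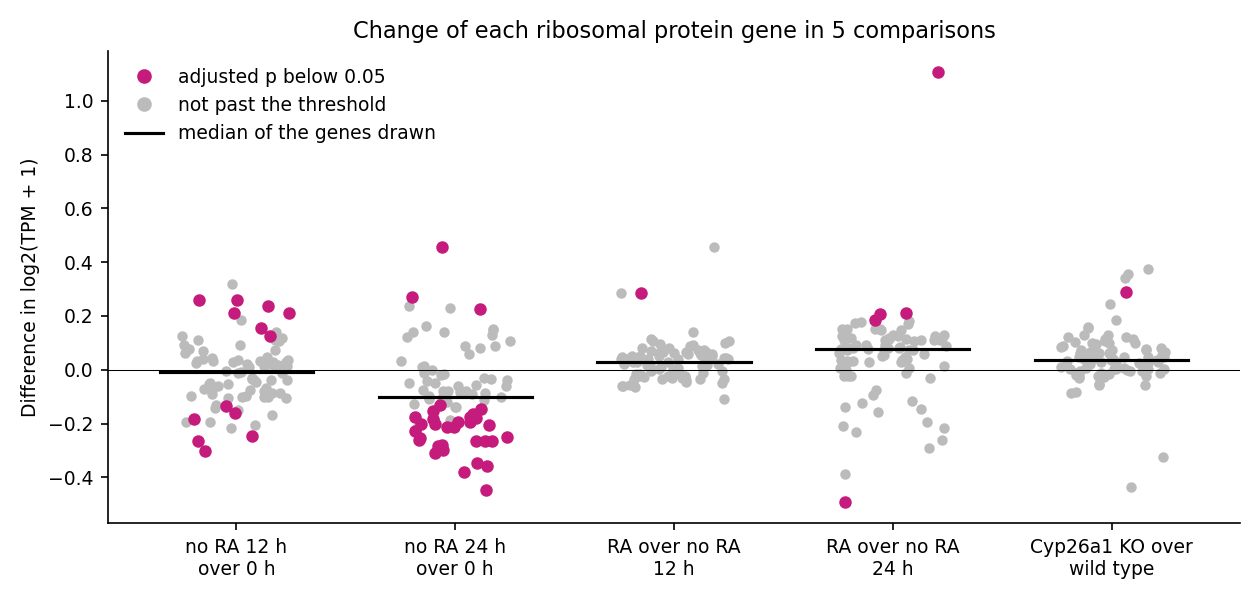
Difference in log2(TPM + 1) of each ribosomal protein gene in 5 comparisons (linear axis), with genes past an adjusted p of 0.05 in pink, the others in grey and the median as a line. The cloud for no RA at 24 h over 0 h sits lowest, with 30 genes past the threshold below 0. The point above 1 is Rpl3l, and Rps27 is left out of the knockout column because its reads are split with Rps27rt.

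The largest fall was that of Rps2. It stood at 3962, 3736 and 3850 TPM in noRA_24h and 5488, 5275 and 4997 TPM in ESC_0h, and fell by 0.45 (SE 0.06, adjusted p = 5.67e-05). All noRA_24h libraries lie far below all ESC_0h libraries. Rps10, a small subunit protein that is ubiquitinated on stalled ribosomes, stood at 2412, 2393 and 2404 TPM in noRA_24h and 3208, 3082 and 2953 TPM in ESC_0h, and fell by 0.36 (SE 0.07, adjusted p = 0.000522). Rps3, which lies at the mRNA entry, stood at 1895, 1867 and 1907 TPM in noRA_24h and 2394, 2386 and 2199 TPM in ESC_0h, and fell by 0.30 (SE 0.07, adjusted p = 0.0035). In both genes the noRA_24h libraries are close together and below all ESC_0h libraries.

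Rplp0 and 3 other proteins of the stalk or its base were each lower. Rplp0 stood at 1529, 1526 and 1549 TPM in noRA_24h and 2068, 1973 and 1950 TPM in ESC_0h, and fell by 0.38 (SE 0.06, adjusted p = 0.000202). Rplp1 and Rplp2, the acidic proteins that bind Rplp0 and contact elongation factors, fell by 0.25 (SE 0.07, adjusted p = 0.0072) and 0.26 (SE 0.07, adjusted p = 0.0050), without overlap. Rpl12, which sits at the base of the stalk, stood at 2419, 2340 and 2421 TPM in noRA_24h and 2893, 2992 and 2718 TPM in ESC_0h, and fell by 0.26 (SE 0.06, adjusted p = 0.0019). After the GC and length correction Rplp0 and Rpl12 remained lower (-0.24 and -0.25), and Rplp1 and Rplp2 did not pass (adjusted p = 0.29 and 0.089).

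Other large subunit genes fell by similar amounts. Rpl36 fell by 0.35 (SE 0.06, adjusted p = 0.000254) and Rpl8, a protein near the peptidyl transferase centre, fell by 0.31 (SE 0.07, adjusted p = 0.0024). Both stayed past the threshold without each library and neither passed after the correction (adjusted p = 0.23 and 0.15). Rpl14 stood at 2287, 2261 and 2273 TPM in noRA_24h and 2828, 2796 and 2585 TPM in ESC_0h, and Rpl27a at 1653, 1607 and 1636 TPM in noRA_24h and 1921, 1905 and 1825 TPM in ESC_0h. These fell by 0.27 (SE 0.05) and 0.21 (SE 0.04), with no overlap in either gene. Rps2, Rplp0, Rps10, Rps3, Rpl12, Rpl14 and Rpl27a are the 7 of 30 falls that stayed past the threshold in all 21 alternatives.

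**Figure D3:**
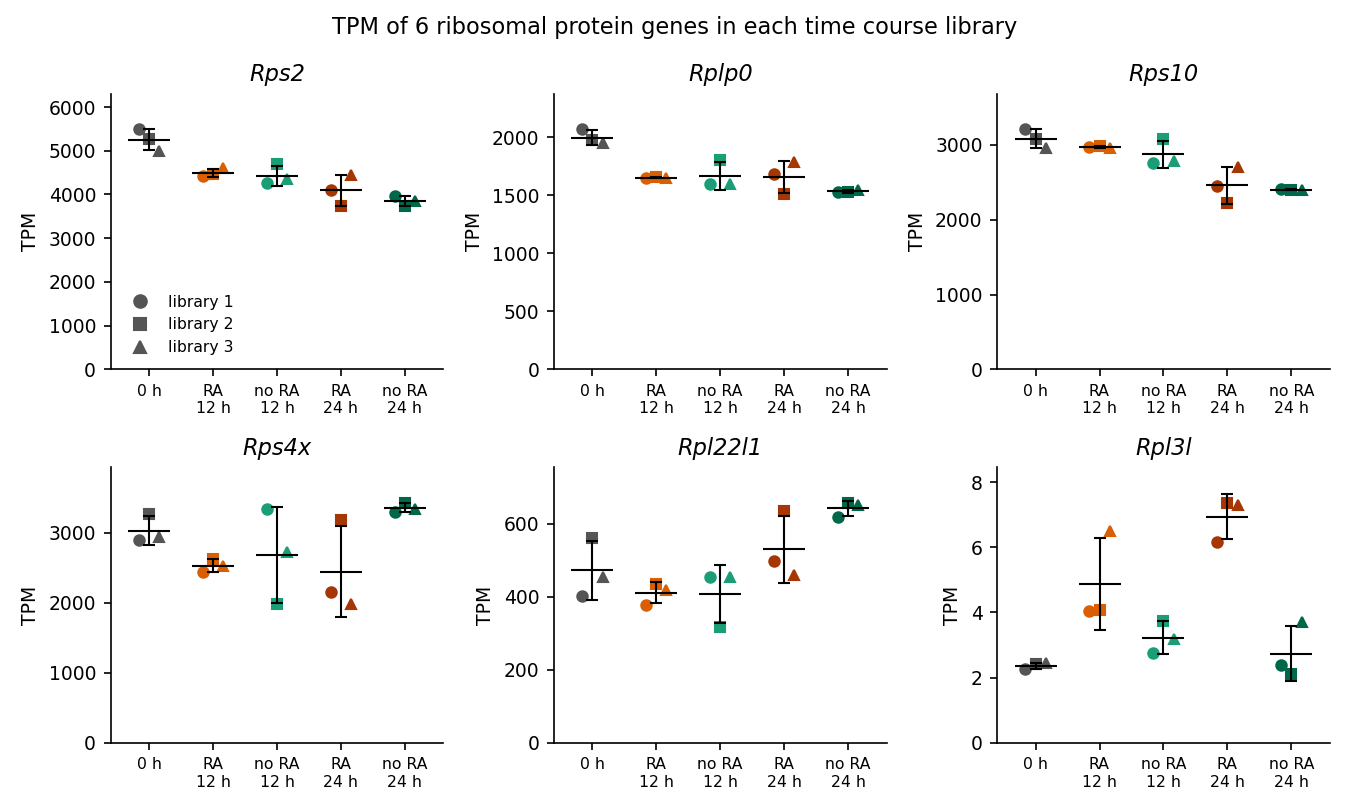
TPM of Rps2, Rplp0, Rps10, Rps4x, Rpl22l1 and Rpl3l in the 15 time course libraries (linear axes from 0), with 1 symbol per library and the mean with its SD (n = 3) as a dash with bars. Rps2, Rplp0 and Rps10 are lowest in noRA_24h with closely spaced libraries, Rps4x and Rpl22l1 have RA_24h library 2 near the noRA_24h libraries, and Rpl3l is highest in RA_24h.

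Of the other named genes, Rpl13a, Rpl10a, Rps14 and Rpl38, the last needed for translation of Hox mRNAs in mouse embryos, fell by 0.20, 0.26, 0.18 and 0.16. None of the 4 passed after the correction (adjusted p = 0.33, 0.10, 0.49 and 0.69), Rpl10a alone among them stayed past the threshold without each library in turn, and Rps14 stood at 0.03 under quantile normalization. Rpl11 and Rpl5, which bind the 5S rRNA and can restrain MDM2, changed by -0.03 (SE 0.05) and 0.23 (SE 0.10) and did not pass (adjusted p = 0.60 and 0.075). Neither did Rps6 (-0.04, SE 0.13), Rps19 (-0.14, SE 0.07), Rpsa (-0.19, SE 0.08), Rpl29 (-0.08, SE 0.06) or Rps27a, a ubiquitin fusion protein (0.15, SE 0.07). Rps25 changed by -0.06 (SE 0.06) and did not pass, but fell by 0.37 after the correction (adjusted p = 0.0027). Rpl22l1, the paralog of Rpl22, rose most: 617, 657 and 652 TPM in noRA_24h and 401, 560 and 455 TPM in ESC_0h, a rise of 0.46 (SE 0.16, adjusted p = 0.025) without overlap. Rpl22 stood at 611, 590 and 627 TPM in noRA_24h and 654, 788 and 657 TPM in ESC_0h and fell by 0.19 (SE 0.07, adjusted p = 0.033). Rpl22l1 therefore held 50.3% to 52.7% of the pair's TPM in noRA_24h and 38.0% to 41.5% in ESC_0h. Rpl21 rose by 0.27 (SE 0.08, adjusted p = 0.010) and Rpl4, which lines the exit tunnel, by 0.23 (SE 0.08, adjusted p = 0.025).

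None of the 3 rises stayed past the threshold without each library in turn or after the correction. Without ESC_0h library 1 the count of higher genes was 0, without ESC_0h library 2 it was 8, and without noRA_24h library 2 or 3 it was 1. After the GC and length correction 27 genes were lower and 0 higher (by limma, 0 also at an unadjusted p below 0.05), against 24.9% and 27.1% of all genes, and Rpl22l1 stood at 0.12 (adjusted p = 0.57). Of the 30 falls, 13 were among the 27. Across the 83 genes the change at 24 h ran with GC content (Spearman's rho -0.43, and -0.33 over all genes), and the median GC content was 54.4% for the 30 lower genes, 48.2% for the 3 higher and 50.6% for the others. After the correction rho was 0.50 over the family and -0.01 over all genes, and the median GC content of the 27 lower genes was 49.2%. The corrected changes of the family thus ran with GC content in the opposite direction. Falls gained or lost under the correction, among them those of Rps25 and Rps24, are limited by this trend. The family's median change was -0.11 after correction, against 0.02 over all genes. With median-of-ratios scaling 14 genes were lower (16.9%, against 24.2% of all genes), all among the 30.

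**Figure D4:**
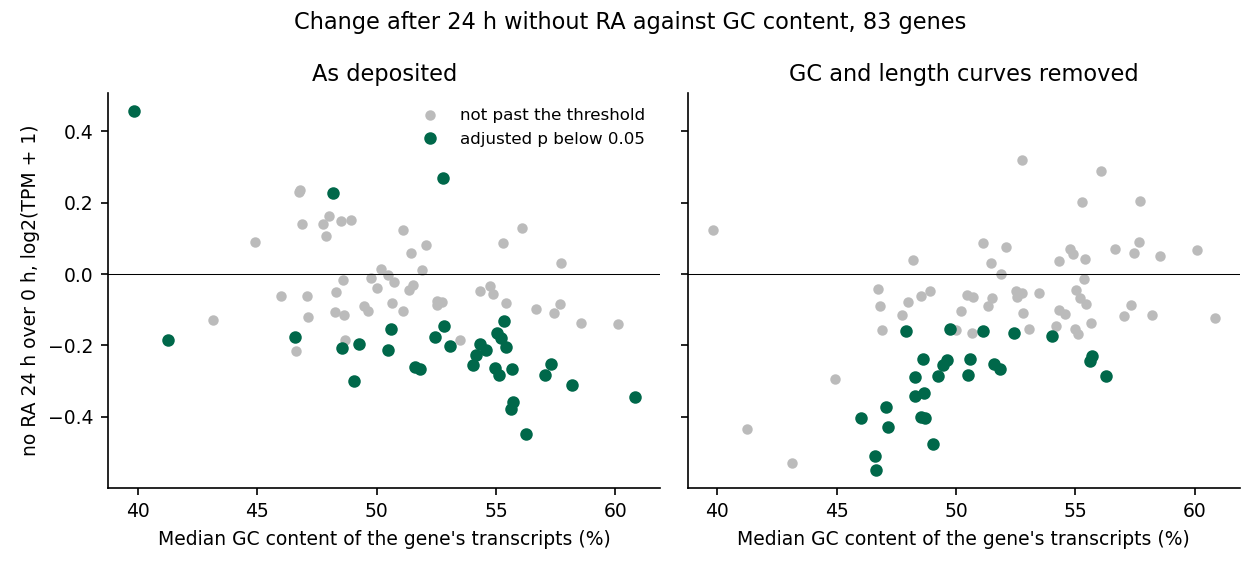
Change after 24 h without RA (difference in log2(TPM + 1) from 0 h) of the 83 genes against the median GC content of their transcripts (percent), before and after removal of each library's GC and length curve, with genes past the threshold in green. Before correction the lower genes lie at higher GC content (rho -0.43), and after it they lie at lower GC content (rho 0.50), with most points below 0 in both.

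Of the 6 genes lower at 12 h, 5 were lower at 24 h (Rps2, Rplp0, Rpl36, Rpl28 and Rpl14), which is 5 of 30 of the later list, and both comparisons share the ESC_0h libraries. Rps2 averaged 5253 ± 246 TPM in ESC_0h, 4434 ± 229 TPM in noRA_12h and 3849 ± 113 TPM in noRA_24h (SD, n = 3 each). Rps10 averaged 3081 ± 127 TPM in ESC_0h, 2875 ± 180 TPM in noRA_12h and 2403 ± 9.92 TPM in noRA_24h, and its 12 h libraries overlap those of 0 h. Rps24, lower at 12 h, averaged 2977 ± 61.4 TPM in noRA_24h and did not pass at 24 h, but fell by 0.55 after the correction (adjusted p = 4.87e-07).

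RA, set against the same time without RA, left the family nearly where it was at 12 h. The median change in RA_12h against noRA_12h was 0.03 (-0.01 over all genes) and turned to -0.06 after the correction (-0.05 over all genes), and 1 gene was higher and 0 were lower by limma (4 and 0 at an unadjusted p below 0.05), against 10.2% and 7.19% of all genes. The higher gene was Rpl10l, an autosomal copy of the X-linked Rpl10 that serves in male meiosis. It stood at 315, 332 and 325 TPM in RA_12h and 235, 287 and 279 TPM in noRA_12h, and rose by 0.28 (SE 0.08, adjusted p = 0.018). The groups do not overlap, as for 99.6% of all genes called higher. Rpl10l and Rpl10 are close copies, so reads may have been divided between them. After correction 2 genes were higher (Rpl10l, by 0.16 with adjusted p = 0.028, and Rps24) and 2 lower (Rps16 and Rps19), against 11.0% and 13.5% of all genes. Spearman's rho between change and GC content over the family was -0.08 before the correction and -0.75 after it. Over all genes it was 0.34 and -0.07. The corrected changes of the family thus ran with GC content, while the uncorrected ones hardly did. Without correction the count of higher genes was 0 without noRA_12h library 1, RA_12h library 2 or RA_12h library 3 and 2 without noRA_12h library 2. The family's share exceeded that of all genes in 0 of 21 alternatives, in either direction.

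At 24 h with RA, 4 of 83 genes were higher and 1 lower than without it, against 22.8% and 12.5% of all tested genes. The family's median change was 0.08, against 0.02 over all genes, and turned to -0.01 after the GC and length correction (-0.01 over all genes). Spearman's rho between change and GC content over the family was 0.50 before the correction and -0.55 after it. Over all genes it was 0.43 and -0.03, so here too the corrected changes of the family ran with GC content. Rpl3l, a paralog of Rpl3 known from heart and skeletal muscle, stood out: 6.15, 7.36 and 7.31 TPM in RA_24h and 2.40, 2.12 and 3.70 TPM in noRA_24h, a rise of 1.11 (SE 0.18, adjusted p = 0.000362). The groups do not overlap, as for 97.2% of all genes called higher, and the rise of Rpl3l passed in all 21 alternatives in which it was tested. The pseudocount of 1 makes it smaller than the ratio of TPM, and at this level it is 0.236% to 0.312% of the TPM of the pair in RA_24h and 0.0904% to 0.158% in noRA_24h.

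The other calls at 24 h were weaker. Rpl34 rose by 0.21 (SE 0.08, adjusted p = 0.048), Rpl13a, a protein that can leave the ribosome to repress inflammatory mRNAs, by 0.21 (SE 0.07, adjusted p = 0.027) and Rpl29 by 0.19 (SE 0.06, adjusted p = 0.021). Rpl13a stood at 6428, 5915 and 7109 TPM in RA_24h and 5725, 5428 and 5651 TPM in noRA_24h, with RA_24h library 2 nearest to the noRA_24h libraries. Rps4x stood at 2161, 3187 and 1979 TPM in RA_24h and 3304, 3427 and 3339 TPM in noRA_24h and fell by 0.49 (SE 0.18, adjusted p = 0.047). None of these 4 calls passed in every leave-one-out fit or after the correction.

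A single library decided the RA count at 24 h. Without RA_24h library 2, 33 of 83 genes were higher and 8 lower, against 28.3% and 25.7% of all genes, and the median change was 0.13. The 8 lower genes were then Rps4x, Rpl7, Rpl22l1, Rpl5, Rps24, Rps6, Rps15a and Rpl39, named after their values were seen. The median GC content was 47.3% for the 8 and 55.0% for the 33. With the GC and length correction and all libraries 9 genes were higher and 1 lower, against 19.7% and 17.4% of all genes. With both, 15 were higher and 16 lower (20.5% and 26.1% of all genes), and the median was -0.08. Of the genes called with all libraries and no correction, Rpl3l alone was higher under each of these. The count of higher genes was 1 or 2 without any other single library of the comparison, and that of lower genes was 0. The family's higher share exceeded that of all genes in 3 of 22 alternatives, and its lower share in 0.

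The RA effect at 24 h was compared with that at 12 h in the same model. By limma 0 of 83 genes passed in either direction (4 higher and 3 lower at an unadjusted p below 0.05), against 4.17% and 2.68% of all genes. The difference for Rpl3l was 0.65 (SE 0.26, adjusted p = 0.16), so its RA effect was not shown to differ between the times. After the correction 0 genes passed (4 higher and 1 lower at an unadjusted p below 0.05), against 4.97% and 4.07% of all genes. Rps4x differed by -0.44 (SE 0.25, adjusted p = 0.38). Without RA_24h library 2, 1 gene was higher and 3 were lower (Rpl7, Rps15a and Rps24, named after their values were seen), against 7.71% and 3.91% of all genes.

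Loss of Cyp26a1 under RA left almost all of the family unmoved past the threshold. In KO_RA24h 1 of 85 genes was higher than in WT_RA24h and 0 were lower by limma (6 and 1 at an unadjusted p below 0.05), against 3.34% and 6.65% of all genes. The median change was 0.04, against -0.05 over all genes. The higher gene was Rpl17, which lines the exit tunnel. It stood at 1641, 1727 and 1647 TPM in KO_RA24h and 1421, 1416 and 1269 TPM in WT_RA24h and rose by 0.29 (SE 0.06, adjusted p = 0.027). The groups do not overlap, as for all 429 genes called higher. Rpl17 was also the only gene of the family past the threshold after the correction (0.27, adjusted p = 0.044), against 4.17% of all genes higher and 8.17% lower. With the replicate number as a block 2 genes were higher (Rpl17 and Rpl30) and 0 lower by limma (9 and 2 at an unadjusted p below 0.05), against 3.08% and 5.96% of all genes.

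Here too a library mattered. Without KO_RA24h library 3, 17 of 85 genes were higher and 0 lower, against 7.78% and 16.8% of all genes, and with the correction as well 7 were higher and 8 lower (6.26% and 18.0% of all genes). Without KO_RA24h library 1 or any 1 of the WT_RA24h libraries the count of higher genes was 0. The family's higher share exceeded that of all genes in 4 of 23 alternatives, and its lower share in 0. Rpl3l stood at 2.95 ± 0.462 TPM in KO_RA24h and 4.39 ± 1.17 TPM in WT_RA24h (SD, n = 3 each), a change of -0.43 (SE 0.18, adjusted p = 0.20) that did not pass. In the same libraries the summed primitive endoderm markers were at 114 to 121 TPM in KO_RA24h and 278 to 299 TPM in WT_RA24h, and their part in these values was not tested.

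Rps27, a zinc-binding protein of the small subunit, had the largest listed difference, and its reads are divided between names. Rps27 stood at 1612, 32.5 and 1389 TPM in KO_RA24h and 37.2, 37.9 and 21.8 TPM in WT_RA24h. Rps27rt stood at 221, 1655 and 198 TPM in KO_RA24h and 1501, 1645 and 1527 TPM in WT_RA24h. Where one is high the other is low, in KO_RA24h libraries 1 and 3 against the other 4. In the Cyp26a1 tables both names are listed on the minus strand of chromosome 3 from base 90212667, to 90213648 for Rps27 and 90213647 for Rps27rt, in mm10. The sum was 1703 ± 124 TPM in KO_RA24h and 1590 ± 80.3 TPM in WT_RA24h (SD, n = 3 each). The listed change of Rps27 (3.70, SE 1.44, adjusted p = 0.17) becomes 0.10 (SE 0.07, adjusted p = 0.44) for the sum. In the time course tables Rps27rt is listed on chromosome 9 at 33.8 to 48.0 TPM, and Rps27 holds 96.6% to 97.4% of the sum in every library.

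**Figure D5:**
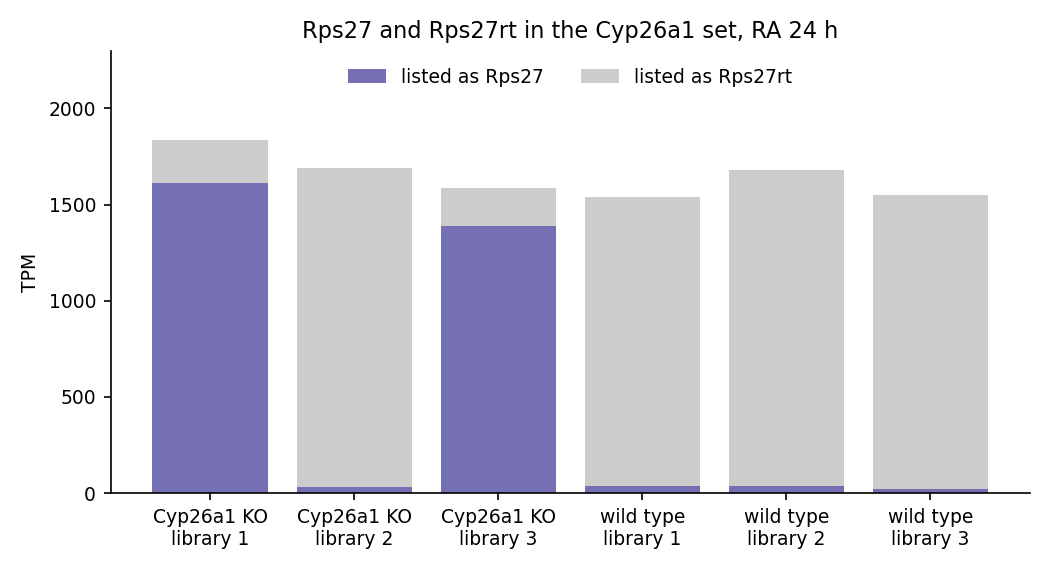
TPM listed as Rps27 (purple) and Rps27rt (grey) in the 6 libraries of the Cyp26a1 set, stacked on a linear axis from 0. The purple part is large in knockout libraries 1 and 3 alone, while the total lies between 1539 and 1833 TPM in all 6.

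In the time course the other paralogs held less TPM than their partners. Rps27l held 41.0% to 48.4% of the TPM of the pair with Rps27, Rpl39l, known from testis, 21.9% to 30.2% with Rpl39, Rpl7l1 9.78% to 18.4% with Rpl7 and Rpl10l 7.35% to 9.13% with Rpl10. Rpl39l held 27.4% to 30.2% of its pair in RA_24h and 25.2% to 26.3% in noRA_24h, without overlap. The shares of Rps27l and Rpl3l did not overlap there either, and those of Rpl22l1, Rpl10l and Rpl7l1 did. Neither Rpl39l nor Rpl39 passed in that comparison (0.06, SE 0.07, for Rpl39l and -0.19, SE 0.08, for Rpl39). Rpl39l was higher after the correction (0.38, adjusted p = 0.048), and Rpl39 was lower with median-of-ratios scaling, with the axis as a covariate and without RA_24h library 2. In the Cyp26a1 set Rpl22l1 held 66.7% to 69.7% of its pair in KO_RA24h and 63.4% to 65.9% in WT_RA24h. Rpl10l held 9.73% to 10.4% and 8.42% to 9.11%, and Rpl39l 17.9% to 20.2% and 20.6% to 21.1%, in the same order. In each of these pairs the groups do not overlap, nor do they for Rpl3l (0.103% to 0.132% and 0.138% to 0.220%). They overlap for Rpl7l1, Rps27l and Rps4l. None of these genes passed between the groups. How often the shares of other gene pairs do not overlap was not tested. Rps4l, listed only in this set, held 19.6% ± 2.89 of the pair with Rps4x in KO_RA24h and 19.7% ± 0.298 in WT_RA24h (SD, n = 3 each). Pseudogene names took reads of their own there, with Rpl14-ps1 at 431 to 465 TPM and Rps6-ps4 at 293 to 328 TPM. Rps27a stood at 3155, 2462 and 3017 TPM in KO_RA24h and 2683, 1525 and 2728 TPM in WT_RA24h, with WT_RA24h library 2 far below the rest.

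Ribosomal proteins whose names fall outside the rule were counted apart. Of 5 (among them Fau, Rack1, Rpl36al and Rps27rt), 3 were lower and 0 higher in noRA_24h than in ESC_0h (median -0.21), and 2 and 0 after the correction (median -0.03). Rack1, a scaffold on the small subunit, averaged 2901 ± 38.6 TPM in noRA_24h and 3493 ± 130 TPM in ESC_0h (SD, n = 3 each) and fell by 0.27 (SE 0.07). Of 21 other TOP translation genes 4 were higher and 7 lower at 24 h (median -0.06), and 3 and 8 after the correction, against 25.4% and 26.5% of all genes before it and 27.1% and 24.9% after it. The largest of these changes was the fall of Snhg8, a snoRNA host, by 0.98 (SE 0.08).

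Of the genes of the machinery that builds ribosomes, more were higher than lower after removal of LIF and 2i. Of 45 genes of rRNA transcription and ribosome assembly, 23 were higher and 1 lower at 12 h (median 0.26) and 14 were higher and 2 lower at 24 h (median 0.23), against medians of -0.04 and 0.03 over all genes. Of all genes 22.0% were higher and 20.4% lower at 12 h, and 25.4% and 26.5% at 24 h. After the correction 21 of the 45 were higher and 2 lower at 12 h and 20 higher and 2 lower at 24 h, against 23.0% and 26.0% of all genes at 12 h and 27.1% and 24.9% at 24 h. Rrn3, an initiation factor of RNA polymerase I, averaged 143 ± 2.88 TPM in ESC_0h, 231 ± 12.1 TPM in noRA_12h and 226 ± 7.33 TPM in noRA_24h (SD, n = 3 each), and rose by 0.69 at 12 h and 0.66 at 24 h (SE 0.06 each). Ubtf, which opens rRNA genes, rose by 0.72 (SE 0.08) at 12 h. Myc itself averaged 4.73 ± 0.805 TPM in ESC_0h, 69.2 ± 3.78 TPM in noRA_12h and 55.5 ± 5.36 TPM in noRA_24h, and rose by 3.62 at 12 h and 3.31 at 24 h (SE 0.10 each). Of the 10 Myc family genes 4 were higher and 1 lower at 12 h (median 0.26), and 4 and 2 at 24 h (median 0.21). After the correction these counts were 4 and 3 at 12 h, and 5 and 2 at 24 h. Mxd4 rose by 1.56 at 12 h and 1.87 at 24 h, while Mycl fell by 1.24 at 24 h.

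Of 15 mTORC1 and TOP regulators 3 were higher and 7 lower at 24 h without RA (median -0.25), against 25.4% and 26.5% of all genes. After the correction 3 were higher and 4 lower and the median was -0.03. Mlst8, a subunit of mTORC1, fell by 1.04 (SE 0.12) and Akt1s1, an inhibitory subunit, by 0.86 (SE 0.10), while Cnbp rose by 0.68 (SE 0.07) and by 0.37 after the correction (adjusted p = 0.029). With RA at 24 h Akt1s1 rose by 0.72 (SE 0.10) against noRA_24h, and by 0.38 after the correction (adjusted p = 0.0071). Of 78 mitochondrial ribosomal protein genes 24 were higher and 14 lower in noRA_24h than in ESC_0h (median 0.03), and 17 and 14 after the correction, against 25.4% and 26.5% of all genes before it and 27.1% and 24.9% after it.

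Mycn, a Myc family member high in ESCs, was lower with RA. It averaged 22.6 ± 2.35 TPM in RA_12h and 74.4 ± 4.16 TPM in noRA_12h, and 8.69 ± 1.02 TPM in RA_24h and 89.3 ± 3.19 TPM in noRA_24h (SD, n = 3 each). It fell by 1.68 and 3.22 (SE 0.09 each), and the later effect was the larger one (difference -1.55, SE 0.12, adjusted p = 6.18e-06). Of the 10 Myc family genes 1 was higher and 3 lower with RA at 12 h, against 10.2% and 7.19% of all genes. At 24 h 2 were higher and 1 lower, against 22.8% and 12.5%. After the correction 0 were higher and 4 lower at 12 h, and 0 and 2 at 24 h. Of the 45 rRNA and assembly genes 3 were higher and 4 lower with RA at 24 h (median -0.14), against 22.8% and 12.5% of all genes. After the correction 2 were higher and 12 lower (median -0.12), against 19.7% and 17.4% of all genes. In the knockout 1 of the 45 was higher, Gar1, a protein of H/ACA ribonucleoproteins, by 0.31 (SE 0.06, adjusted p = 0.027), against 3.34% of all genes, and after the correction 5 were higher, against 4.17%. Among the mitochondrial ribosomal protein genes Mrps28 fell by 1.05 (SE 0.08, adjusted p = 0.0015), to 52.6 ± 5.51 TPM in KO_RA24h, against 110 ± 3.04 TPM in WT_RA24h.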

How the data were processed

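The submitters' processing notes list HISAT2 (a spliced aligner), StringTie (which estimates transcript levels) and the build mm10, without their role or version. Each library has a gene table of coverage, FPKM and TPM. The coverage signal is the mean depth per base, as deposited per the file headers, and its most frequent ratio to FPKM over genes gave the aligned gigabases. The FPKM values were scaled by the authors for gene length and depth, per the file headers. The deposited TPM values sum to 1 total in every library, by the authors' scaling. Counts and strand were not used or stated, so overlapping, antisense and near-identical genes, common in this family, are uncertain.

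The members and gene lists were chosen with earlier results of these data known. Every gene reaching 1 TPM in 3 or more libraries of its set entered limma 3.58.1 (R 4.3.3) as log2(TPM + 1) (eBayes with an intensity trend), 15 time course libraries in 1 model and 6 Cyp26a1 set libraries in another, with Benjamini-Hochberg adjustment over all genes tested and a threshold of 0.05. Changes are differences on that scale with their SE. A fold change on it understates the change of low genes. GENCODE M21 gave the length and GC content of all ribosomal protein genes. The correction removed, per library, natural splines with 4 degrees of freedom on each. Named were up to 6 highest and 6 lowest genes past the threshold per comparison, paralogs, stalk and 5S RNA-binding proteins and single genes with known special roles. Genes of the other lists were named where past the threshold and among the 3 largest changes. Single results of some genes are not reported here. The fits were tested on simulated data in which genes varied independently and changes were larger than nearly all of this family. That test does not cover small changes or shifts shared by many genes. Same-numbered KO_RA24h and WT_RA24h libraries deviated together in part (r of 0.32, 0.19 and 0.54), and library 2 was not the best match of its number. The main fit has no replicate block, and the block was fitted only as an alternative. Python 3.11.15 (pandas 2.3.3, numpy 2.4.6, matplotlib 3.10.9) was used for tables and plots.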

Additional observations from a re-analysis of the deposited data

How the results depend on the processing

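The fall of the family's median after 24 h without RA kept its sign in all 21 alternatives (-0.14 to -0.07). Counts of genes past the threshold moved more. For noRA_12h against ESC_0h (7 higher, 6 lower), scaling on other genes, FPKM and no intensity trend each gave 4 higher, the within-group axis as a covariate gave 12 higher and 17 lower, a model of only these groups 1 higher and 2 lower, no filter 3 lower, median-of-ratios scaling 1 lower, FPKM 3 lower and no trend 2 lower. For noRA_24h against ESC_0h (3 higher, 30 lower), median-of-ratios scaling gave 5 higher and 14 lower. The axis covariate gave 8 higher and 44 lower, and only these groups 5 higher. For RA_12h against noRA_12h (1 higher), a mean of at least 5 TPM, quantile normalization and FPKM each gave 2 higher, median-of-ratios scaling and only these groups 0, and the axis covariate 4. For RA_24h against noRA_24h (4 higher, 1 lower), no filter, FPKM and no trend each gave 2 higher, with 0 lower under no filter and no trend, median-of-ratios scaling 1 higher and 5 lower, quantile normalization 16 higher, the axis covariate 30 higher and 11 lower, and only these groups 1 higher and 0 lower. The axis covariate gave 5 higher and 5 lower for the change of the RA effect, and 17 higher and 3 lower for KO_RA24h against WT_RA24h. For the knockout, quantile normalization gave 2 higher, and FPKM and no trend 0. The axis was drawn from the same residuals, and the cause of these shifts was not tested. With the fits without single libraries included, the family's higher share exceeded that of all genes in 3 of 22 alternatives for RA_24h. It did so in 4 of 23 for KO_RA24h, 0 of 21 for noRA_12h, noRA_24h and RA_12h, and 0 of 27 for the change of the RA effect. The lower share exceeded that of all genes in 19 of 21 for noRA_24h and in 0 for every other comparison.

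The GC and length correction gave 1 higher and 20 lower (noRA_12h), 0 higher (noRA_24h), 2 higher and 2 lower (RA_12h) and 9 higher (RA_24h), and curves from genes outside the family gave the same counts. Chosen after the data were seen, the correction without RA_24h library 2 gave 15 higher and 16 lower, and without KO_RA24h library 3 it gave 7 higher and 8 lower. The median change with RA turned to -0.057 at 12 h and -0.013 at 24 h under the correction, with or without the block (-0.057 and -0.014 with curves from other genes), and to -0.078 at 24 h without RA_24h library 2. Rpl29 turned to -0.013 in both and -0.014 at 24 h. Without RA_24h library 2 as well, Rpl29 turned to -0.14, Rpl10a to -0.19, Rpl13a to -0.0084 and Rpl34 to -0.020. Rps14 turned to 0.034 at 24 h without RA under quantile normalization.

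Leaving out each library in turn gave 1 to 10 higher and 2 to 7 lower for noRA_12h, 0 to 8 higher and 20 to 33 lower for noRA_24h, 0 to 2 higher for RA_12h, 1 to 33 higher and 0 to 8 lower for RA_24h, 0 to 1 higher and 0 to 3 lower for the change of the RA effect, and 0 to 17 higher for KO_RA24h.

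Time course libraries of the same number did not deviate together (r from -0.53 to 0.28, and 2 of 12 pairs were the best match of their number). With most within-group variation on 1 axis, this cannot show whether same-numbered libraries were handled together. The replicate block gave 3 lower for noRA_12h, and 2 higher and 0 lower for RA_24h. The replicate block with the correction gave 1 higher and 16 lower for noRA_12h, 0 higher for noRA_24h, 2 higher for RA_12h and 0 lower for RA_24h. For KO_RA24h the block gave 2 higher, also with Rps27rt added to Rps27, and changed no other call count by over 1.5 times.

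Groups of 3 libraries, an unstated read-sharing rule among near-identical genes and GC trends that differ between groups limit how well single ribosomal protein genes can be placed. With a median SE of 0.06 over the family in the time course, the smallest change past the threshold was 0.13 (Rps26 in noRA_12h).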
